A study of Mus musculus with 4 samples.

Results

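The tubulin genes Tuba1a, Tuba1b and Tuba1c, which encode alpha tubulin, and Tubb5, Tubb4b, Tubb2a, Tubb2b and Tubb6, which encode beta tubulin, were examined in mouse embryonic stem cells. These 8 genes were taken by symbol from the 13831 symbols of a table of single RNA reads, and all 8 had reads in every library. They held 10184 of the 1903919 reads with a poly(A) tail length above 0. The cells were of the J1 line, grown untreated in serum with LIF, and were either wild type (WT) or labelled as knocked out for the RNA helicase gene Mov10 (KO). There were 2 libraries of each genotype, WT 1 and WT 2 on one side and KO 1 and KO 2 on the other. How the knockout was made, and whether a genotype was 1 clone, is not given in the sources used here. Each read came from direct RNA nanopore sequencing of RNA selected on oligo(dT) beads. It stands for the 3′ end of 1 molecule, whose tail length was estimated in nucleotides (nt).

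Alpha and beta tubulin pair into heterodimers that polymerise into microtubules, the filaments of the mitotic spindle and of transport within the cell. Tubulin mRNAs are known for autoregulation: when free tubulin dimers are in excess, the factor Ttc5 recognises the start of a nascent tubulin chain and, with Scaper, brings the Ccr4-Not deadenylase to the translated mRNA, which is then degraded. A poly(A) tail is the part of an mRNA that this deadenylase shortens.

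Libraries held from 351133 to 683239 reads on 11013 to 12065 symbols, and library median tails were 97.3 nt in WT 1, 105.6 nt in WT 2, 105.8 nt in KO 1 and 98.1 nt in KO 2. Mov10 itself had 26 and 14 reads in the WT libraries and 0 and 1 in the KO libraries, which fits the labels. All 8 embryonic stem cell markers examined had reads in every library, with summed levels of 9280 and 9438 reads per 1000000 reads (RPM) in the WT libraries and 8094 and 7139 in the KO libraries. Both KO libraries thus lay below both WT libraries for this summed level. The same held for Pou5f1, Zfp42 and Tdgf1 singly, with Zfp42 at 974 and 627 RPM in WT and 439 and 395 in KO. Nanog, Sox2, Esrrb, Dppa5a and Utf1 overlapped between genotypes. Dppa5a, the largest part of the sum, had 4951 and 5625 RPM in WT and 4973 and 4058 in KO. Over all genes tested for read number, 40.5% did not overlap in either direction, on the scaled levels described below. For 987 of these 4815 genes both KO libraries lay below both WT libraries. Of 6 fibroblast feeder markers only Thy1 had reads, at 5.70 to 14.0 RPM. Neural markers summed to 362 to 471 RPM, nearly all of it Stmn2 and Tubb3, with Sox1 and Dcx at 0. Endoderm and mesoderm markers reached at most 4.55 RPM. The labels do not say that replicates came from separate cultures, so p-values measure only the spread between these libraries. Proportions of cell states and RNA per cell cannot be told apart in such bulk samples.

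RefSeq upstream sequences (build GRCm38.p6) were matched for 6 of the 8 genes. The 250 bases before the annotated start are shown for Tuba1b, Tubb5 and Tubb4b, since these 3 genes gave most tubulin reads and stood in a fixed order of abundance in all 4 libraries. Capitals mark each CCAAT, a motif common in promoters, read 5′ to 3′ on the gene's strand; the search covered both strands, and also TATAA, the core of the TATA box.
Tuba1b, chr15:98934391-98934640, minus strand: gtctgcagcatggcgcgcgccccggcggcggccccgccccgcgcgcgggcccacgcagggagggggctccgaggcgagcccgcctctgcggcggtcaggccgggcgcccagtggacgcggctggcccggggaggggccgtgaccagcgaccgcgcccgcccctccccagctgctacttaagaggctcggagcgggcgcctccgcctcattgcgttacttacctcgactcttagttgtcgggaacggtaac
Tubb5, chr17:35838302-35838551, minus strand: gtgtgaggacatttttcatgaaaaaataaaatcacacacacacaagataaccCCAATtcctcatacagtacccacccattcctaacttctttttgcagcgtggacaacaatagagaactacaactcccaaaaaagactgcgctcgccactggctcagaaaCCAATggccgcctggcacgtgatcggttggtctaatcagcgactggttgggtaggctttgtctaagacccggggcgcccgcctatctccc
Tubb4b, chr2:25224703-25224952, minus strand: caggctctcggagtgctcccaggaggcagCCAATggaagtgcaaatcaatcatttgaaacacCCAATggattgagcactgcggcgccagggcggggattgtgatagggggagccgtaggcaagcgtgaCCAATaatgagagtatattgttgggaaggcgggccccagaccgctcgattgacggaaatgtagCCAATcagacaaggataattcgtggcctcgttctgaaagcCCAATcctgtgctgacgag
These upstream sequences differed in makeup. The Tubb4b window held 5 CCAAT, all on the gene's strand, a number reached by 0.213% of 32851 RefSeq windows of this length. The Tubb5 window held 2 and the Tuba1b window 0, and 33.8% of all windows held at least 1 on either strand. The Tuba1b window was 75.6% G and C, against 49.2% for Tubb5, 54.4% for Tubb4b and a median of 52.4% over all windows. TATAA occurred in none of these 3 windows and in 22.8% of all. Of the other matched genes, Tuba1a and Tubb2a held 1 TATAA each and Tuba1c held 0. Tuba1a and Tuba1c held 1 CCAAT each and Tubb2a held 0. By RefSeq gene order Tuba1b, Tuba1a and Tuba1c are consecutive protein-coding genes on chromosome 15, and Tubb2a and Tubb2b on chromosome 13.

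Because the coding parts of tubulin genes are near copies of each other, the assignment of reads was checked first. Almost every read of a gene lay on 1 transcript of that gene: 4760 of 4763 Tuba1b reads lay on ENSMUST00000077577.7, 544 of 548 Tuba1a reads on ENSMUST00000097014.6 and 688 of 689 Tuba1c reads on ENSMUST00000058914.9. The main transcript of Tuba1b carried 19 reads under 8 other symbols, of which 4 reads were Tuba1a or Tuba1c, and that of Tuba1c carried 2 reads of other members. The transcripts of Tubb5, Tubb4b, Tubb2a, Tubb2b and Tubb6 carried no other symbol. Where symbol and transcript disagreed the source of a read is uncertain, and reads that both labels place on the wrong paralog were not testable here.

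Tuba1b was the most abundant tubulin mRNA, followed by Tubb5 and Tubb4b. Tuba1b, a broadly expressed alpha tubulin, had 2227 and 2096 RPM in the WT libraries and 2645 and 2886 in the KO libraries. Both KO libraries lay above both WT libraries, also on the scaled levels of the test below. On those levels both KO libraries lay above both WT libraries for 965 of 4815 tested genes and below for 987, 40.5% in all. Tubb5, the main beta tubulin of dividing cells, had 1222 and 954 RPM in the WT libraries and 1061 and 1288 in the KO libraries, so its groups overlapped. Tubb4b, a beta tubulin also used in cilia, had 389 and 755 RPM in WT and 552 and 914 in KO. Its libraries numbered 2 were the higher ones in each genotype, and the gap within WT exceeded the difference between the genotype means of 572 ± 259 and 733 ± 256 RPM (SD, n = 2).

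The other members were less abundant. Tuba1c, another alpha tubulin of dividing cells, had 296 and 359 RPM in WT and 345 and 458 in KO. Tubb2b, best known from migrating neurons, had 305 and 185 RPM in WT and 364 and 319 in KO. Tuba1a, the main alpha tubulin of developing neurons, had 253 and 208 RPM in WT and 318 and 342 in KO. The KO libraries were the higher ones for Tubb2b and Tuba1a and overlapped WT for Tuba1c. On the scaled levels of the test below Tuba1a stayed separated, but Tubb2b overlapped, with 338 scaled RPM in WT 1 and 302 in KO 2. Tubb2a had 66.0 and 68.4 RPM in WT and 99.5 and 65.1 in KO, and Tubb6 had 45.5 and 25.6 in WT and 60.0 and 53.5 in KO. Tubb6 rested on as few as 9 reads, in WT 2.

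Over the 4 libraries the levels ran from 2464 ± 366 RPM for Tuba1b (SD, n = 4) through 1131 ± 152 for Tubb5 and 652 ± 230 for Tubb4b down to 46.2 ± 14.9 for Tubb6. The first 3 steps of this order, from Tuba1b to Tubb5, Tubb4b and Tuba1c, held in 4 of 4 libraries. Tuba1c, Tubb2b and Tuba1a, at 365 ± 68.0, 293 ± 76.5 and 280 ± 61.1 RPM, did not differ beyond the spread of their differences within libraries (71.3 ± 99.6 and 13.3 ± 42.0 RPM). Ranked on mean level against all 4815 genes averaging 10 or more reads, Tuba1b stood at the 98.1 percentile, Tubb5 at 97.2 and Tubb6 at 44.8. A read counts 1 molecule whatever the length of its transcript, so these levels were not divided by length.

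**Figure D1:**
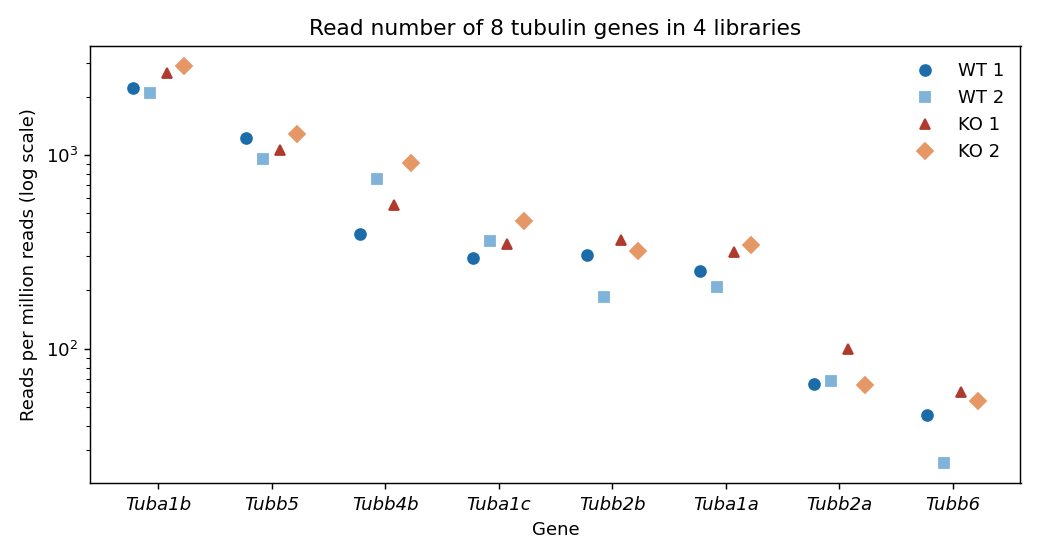
Read number of each tubulin gene, in reads per 1000000 reads on a log axis, with 1 point for each of the 4 libraries. Tuba1b, Tubb5 and Tubb4b keep the same order in every library, and Tubb4b ranges from 389 to 914 RPM.

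Alpha reads and beta reads, here and below, are those of the members only. The other tubulin genes described further on were not counted. Among them Tuba4a had 80, 98, 231 and 168 reads in WT 1, WT 2, KO 1 and KO 2, against 111, 73, 217 and 147 for Tuba1a. Among the alpha members the mix of genes was nearly constant. Tuba1b made up 80.2, 78.7, 80.0 and 78.3% of alpha reads in WT 1, WT 2, KO 1 and KO 2, and the mean was 79.5 ± 1.08% in WT and 79.1 ± 1.17% in KO (SD, n = 2). Tuba1c gave 10.4 to 13.5% and Tuba1a 7.81 to 9.60%. The beta class was less even. Tubb5 made up 60.3% of beta reads in WT 1 and 48.0, 49.7 and 48.8% in WT 2, KO 1 and KO 2, while Tubb4b made up 19.2% in WT 1 and 38.0, 25.8 and 34.6% in the others. WT 1 was thus the library with the most Tubb5 and the least Tubb4b for its beta reads. Alpha reads outnumbered beta reads in all libraries, by ratios of 1.37, 1.34, 1.55 and 1.40.

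Summed over the 8 genes, tubulin had 4803 and 4651 RPM in the WT libraries and 5445 and 6325 RPM in the KO libraries. Both KO libraries were above both WT libraries, by 1158 RPM on average (4727 ± 108 in WT and 5885 ± 623 in KO, SD, n = 2). An exact two-sided permutation test gave p = 0.333, the smallest that 2 libraries against 2 allow. The difference was 718 RPM without KO 2. With median-of-ratios scaling, which divides each library by its typical ratio to the other libraries over genes, it was 725 RPM (p = 0.667, same exact test). On that scaling the genotypes overlapped, since separated groups always give the smallest p of this test. The summed stem cell markers moved the other way between genotypes, as given above, and their part in this result was not tested.

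Gene by gene, read number was tested with limma's voom on median-of-ratios scaling over 4815 genes. No member passed a Benjamini-Hochberg adjusted p of 0.05, and over all genes the share that passed was 0%, with 10.3% at an unadjusted p under 0.05. None of the 8 members had such an unadjusted p. Tuba1a had a log2 change of 0.40 in KO with a standard error of 0.26 (95% interval -0.15 to 0.96, limma adjusted p = 0.629). Leaving out WT 2 gave 0.18 and leaving out WT 1 gave 0.64. For Tuba1b it was 0.24 ± 0.21 (interval -0.19 to 0.67, limma adjusted p = 0.725), and leaving out the same libraries gave 0.11 and 0.38. For Tubb5 it was -0.01 ± 0.24 (interval -0.51 to 0.49). For Tubb6, on the fewest reads, it was 0.57 ± 0.41 (interval -0.29 to 1.44, limma adjusted p = 0.655), against 0.11 with WT 2 left out and 1.09 with WT 1 left out. These intervals leave room for changes of either sign in every member. A positive change was seen in 7 of the 8 members, whose median was 0.25, against 49.4% of all tested genes and a median of -0.01. When libraries were scaled by their totals the median gene stood at 0.11, and then all 8 members were positive, around a median of 0.35. On median-of-ratios scaled levels the genotypes did not overlap for 3 of the 8 members, Tuba1a, Tuba1b and Tubb6, each with KO above WT. Over the 4815 tested genes, 965 had both KO libraries above both WT libraries and 987 had both below, 40.5% in all.

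Tail lengths of the tubulin mRNAs were then described. Tuba1b and Tubb4b had tails shorter than the library median in every library, while Tuba1c was at or above it. Tuba1b had median tails of 91.8 nt in WT 1 (exact 95% interval of the median over reads 86.6 to 96.2), 100.7 nt in WT 2 (93.8 to 104.7), 97.7 nt in KO 1 (94.2 to 100.5) and 91.5 nt in KO 2 (88.9 to 95.4). The groups overlapped on these medians. Tuba1b minus the library median was -5.56 and -4.90 nt in WT and -8.15 and -6.65 nt in KO, on average -6.31 ± 1.42 nt (SD, n = 4). On that measure both KO libraries lay below both WT libraries, and how many of all genes did so was not counted. Such intervals cover the sampling of reads only.

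Tubb4b had medians of 87.3 and 86.1 nt in WT and 86.1 and 92.9 nt in KO, and minus the library median these were -9.99, -19.5, -19.8 and -5.20 nt. It had a median under that of its library in 4 of 4 libraries, as did Tuba1a, Tuba1b and, on few reads, Tubb6; of all 1935 genes that reached 20 reads in every library, 14.4% did so. Its medians stood between the 4.24 and the 26.5 percentile of these genes. Tuba1c had medians of 113.1 and 108.1 nt in WT and 106.7 and 102.4 nt in KO, and minus the library median these were 15.8, 2.50, 0.830 and 4.31 nt. Its KO medians both lay below its WT medians, although the 4 intervals over reads overlapped. Minus the library median the genotypes overlapped.

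Tubb5 was uneven between libraries. Its medians were 89.1 nt in WT 1 (82.9 to 95.7), 109.0 nt in WT 2 (102.8 to 114.5), 115.0 nt in KO 1 (109.2 to 119.8) and 107.9 nt in KO 2 (102.1 to 112.7). WT 1 stood apart from the other libraries, with quartiles of 58.6 and 124.0 nt against 79.1 and 148.9 nt in KO 1. Relative to the library median it was 8.18 nt shorter in WT 1 and 3.37, 9.21 and 9.81 nt longer in WT 2, KO 1 and KO 2. Tubb2b had the same order of WT libraries, with 89.5 and 113.4 nt in WT and 111.9 and 106.8 nt in KO. In both genes WT 1 was the low library, and in neither did the genotypes separate on the medians themselves. Relative to the library median, both KO libraries of Tubb5 lay above both WT libraries. Tubb2b overlapped on that measure, with -7.81 and 7.78 nt in WT and 6.06 and 8.68 nt in KO. How many of all genes separate on that measure was not counted.

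Tuba1a had 82.3 and 91.6 nt in WT and 99.8 and 97.3 nt in KO, so both KO libraries were above both WT libraries. Tubb2a had 86.9 and 75.8 nt in WT and 111.2 and 77.5 nt in KO. Only KO 1 was high, and intervals were as wide as 30.4 to 121.1 nt in WT 2, on 24 reads. Tubb6 had 82.0 and 88.7 nt in WT and 103.6 and 95.8 nt in KO, on 9 to 41 reads in a library, too few for the test across genes.

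**Figure D2:**
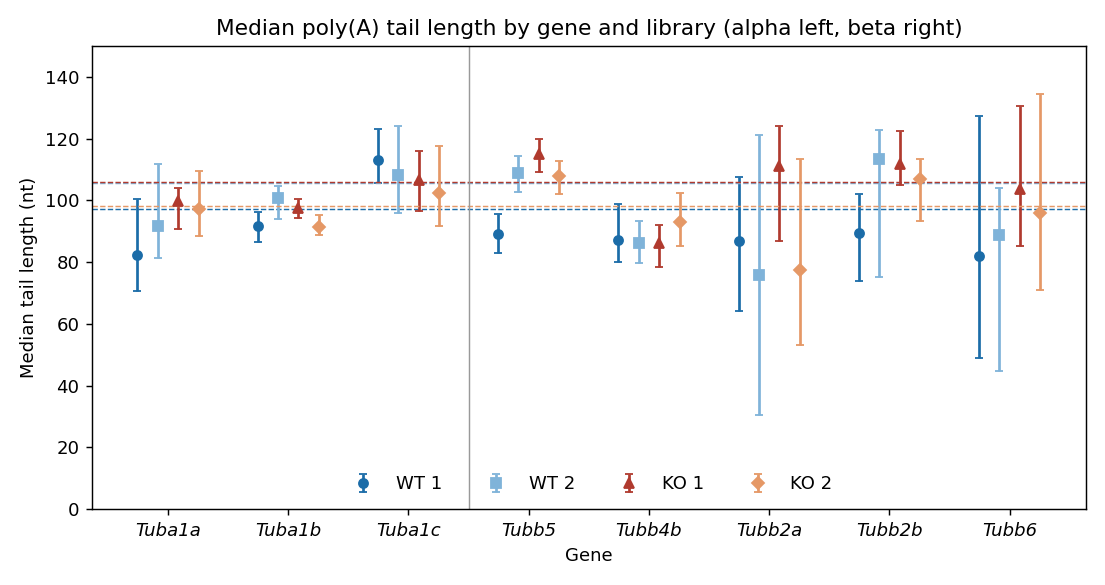
Median tail length in nt of each tubulin gene in each of the 4 libraries; bars are exact 95% intervals of the median over reads, and dashed lines are the medians of all reads of each library. Tubb5 and Tubb2b are low in WT 1 only, and Tubb4b stays between 86.1 and 92.9 nt.

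Ordered by the mean of their library medians, the 7 members with enough reads ran from Tuba1c (107.6 ± 4.42 nt, SD, n = 4), Tubb2b (105.4 ± 10.96) and Tubb5 (105.3 ± 11.2) to Tuba1b (95.4 ± 4.55), Tuba1a (92.7 ± 7.78), Tubb4b (88.1 ± 3.25) and Tubb2a (87.8 ± 16.3). Of the steps between neighbours, that from Tubb5 to Tuba1b was the largest, with 9.87 ± 9.28 nt (SD of the differences within libraries) and Tubb5 longer in 3 of 4 libraries. All other steps were smaller than the spread of their differences. The range of 50% of molecules was wide in every gene: in Tuba1b the middle reads spanned 62.6 to 71.6 nt depending on the library, far more than the gap between any 2 member means.

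Long tails of 150 nt or more were less frequent on the pooled tubulin reads than on the other reads of the same library. They made up 15.4, 17.3, 17.7 and 15.5% of tubulin reads in WT 1, WT 2, KO 1 and KO 2, against 18.8, 24.0, 23.8 and 19.6% of all other reads. The difference was -5.06 ± 1.54 percentage points (SD, n = 4) and below 0 in 4 of 4 libraries. It did not hold for every member. Tuba1b, with the most reads, and Tuba1a had smaller long shares than the other reads in every library. For Tuba1c the long share was 20.8, 24.6, 18.6 and 21.8% in WT 1, WT 2, KO 1 and KO 2. It was below that of the other reads in KO 1 only. Each beta member exceeded the other reads in some library, as Tubb5 did in KO 1 with 24.3%. Short tails under 30 nt made up 3.32, 3.74, 2.55 and 3.09% of tubulin reads, on 61 to 95 reads in a library, against 2.35, 3.02, 1.55 and 2.75% of the others. The 95% Wilson intervals of the tubulin shares, 2.63 to 4.17% in WT 1 and 2.09 to 3.11% in KO 1, lay above the share of the other reads in those libraries, and those of WT 2 (from 2.92%) and KO 2 (from 2.50%) held it. Between genotypes the long share was 16.4 ± 1.37% in WT and 16.6 ± 1.60% in KO (SD, n = 2), a difference of 0.247 points (exact two-sided permutation test, p = 0.667). Its sign turned without WT 1 (-0.720) and without KO 1 (-0.885). The difference was 2.66 points for tails of 120 nt or more (p = 0.667, same exact test) and 1.36 points as a mean of the members' own shares (p = 0.333).

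**Figure D3:**
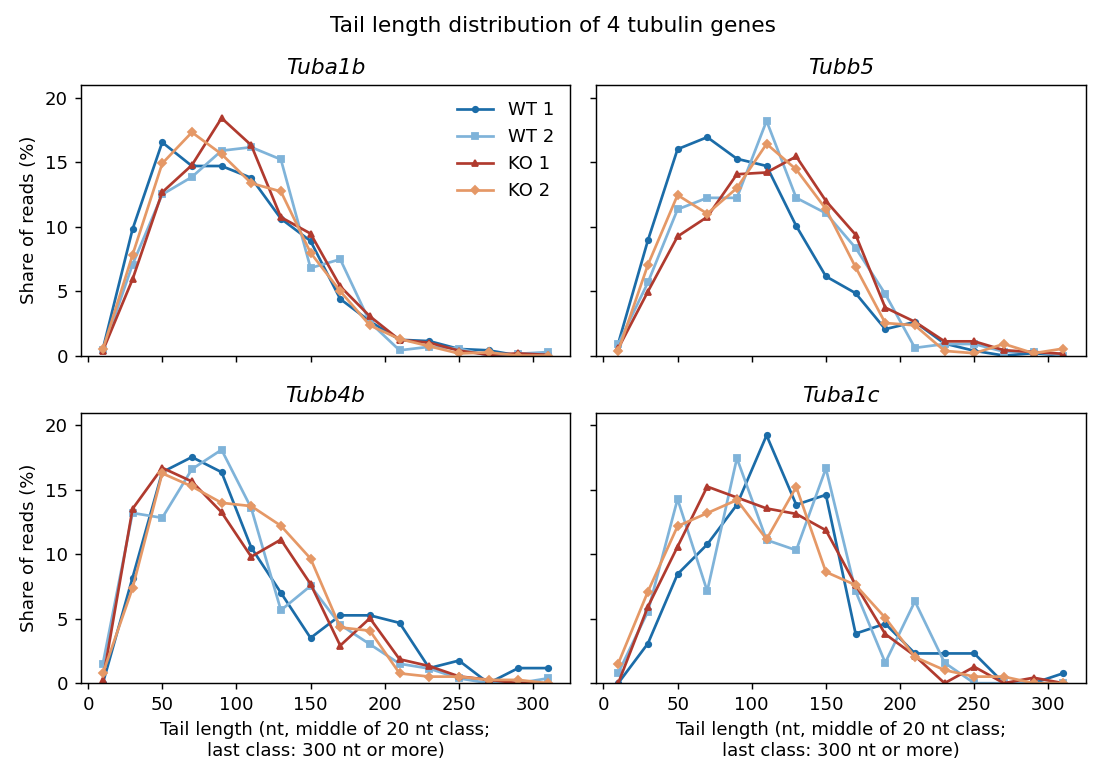
Share of reads, in percent, by tail length in classes of 20 nt for Tuba1b, Tubb5, Tubb4b and Tuba1c, with 1 line for each library. The Tubb5 line of WT 1 peaks at 60 to 80 nt with 16.9% of reads, and that of KO 1 at 120 to 140 nt with 15.4%.

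Alpha and beta tubulin were compared as classes because their products are used in equal numbers. Pooled alpha reads had median tails of 93.9, 100.8, 98.6 and 93.4 nt in WT 1, WT 2, KO 1 and KO 2, and pooled beta reads 88.5, 99.0, 107.5 and 102.7 nt. Beta minus alpha was -5.35 and -1.80 nt in the WT libraries and 8.91 and 9.21 nt in the KO libraries. Over the 4 libraries the mean difference was 2.74 ± 7.44 nt (SD, n = 4), and an exact two-sided sign-flip permutation test gave p = 0.5, where 0.125 is the smallest possible. With the median over member medians the mean difference was -1.63 nt. On transcripts whose reads all carry 1 symbol, where Tuba1a is the only alpha gene left, beta lay above alpha in 4 of 4 libraries, by 6.57 ± 0.959 nt (SD, n = 4; exact sign-flip permutation p = 0.125). The order of the classes thus depended on the reads and the summary used.

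Split by genotype, beta minus alpha averaged -3.57 ± 2.51 nt in the WT libraries and 9.06 ± 0.216 nt in the KO libraries (SD, n = 2), which are 12.6 nt apart. This split was examined after the values had been seen, and the exact two-sided permutation test gave p = 0.333, the smallest possible with n = 2. Leaving out 1 library at a time gave from 10.9 nt (WT 1 left out) to 14.4 nt (WT 2 left out). Without Tubb5 reads it was 11.6 nt, without Tubb4b reads 13.2 nt, and with means of log2 tail length 7.76 nt. On the alpha side it was 13.3 nt without Tuba1a reads, 13.4 nt without Tuba1b reads and 11.7 nt without Tuba1c reads. Against Tuba1a alone, on transcripts whose reads all carry 1 symbol, it was gone: beta minus Tuba1a was 6.22 and 7.40 nt in the WT libraries and 7.29 and 5.37 nt in the KO libraries, which are -0.478 nt apart (exact permutation p = 0.667). The split was therefore not seen against Tuba1a alone. For the largest gene of each class, Tubb5 minus Tuba1b was -2.62 and 8.27 nt in WT and 17.4 and 16.5 nt in KO. Alpha reads were below the other reads of their library in 4 of 4 libraries, with a mean difference of -5.07 ± 1.57 nt (SD, n = 4). For beta reads that difference was -8.84 and -6.66 nt in the WT libraries and 1.67 and 4.54 nt in the KO libraries. The share of Tubb4b among beta reads, given above, also moved between these libraries, and its part in the result was not tested beyond leaving those reads out.

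**Figure D4:**
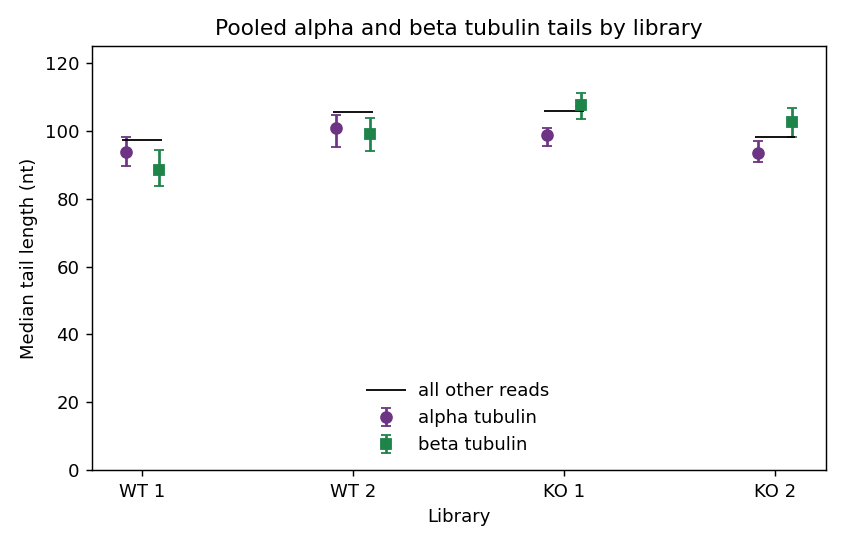
Median tail length in nt of pooled alpha and pooled beta tubulin reads in each library, with exact 95% intervals over reads; black dashes are the median of all other reads. Beta lies below alpha in WT 1 and WT 2 and above it, by 8.91 and 9.21 nt, in KO 1 and KO 2, a pattern not seen against Tuba1a alone.

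The change in tail length with genotype was tested by limma on log2 medians of 1935 genes, 7 tubulin genes among them. No member passed an adjusted p of 0.05, nor had an unadjusted p under 0.05. Over all genes 0% passed the adjusted threshold and 2.33% had an unadjusted p under 0.05. Tubb5 had a log2 change of 0.18 in KO with a standard error of 0.11 (95% interval -0.05 to 0.40, limma adjusted p = 0.9998, alternatives 0.105 to 0.9999). WT 1 decided its size, as the change was 0.03 without that library and 0.32 without WT 2. Tuba1a had 0.18 ± 0.14 (interval -0.10 to 0.47), and 0.11 without WT 1. The change of Tuba1b was -0.02 ± 0.10 (interval -0.22 to 0.17), the narrowest interval of the 7. Tuba1c had -0.08 ± 0.14, Tubb4b 0.04 ± 0.13, Tubb2b 0.12 ± 0.14 and Tubb2a 0.19 ± 0.21.

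The change was positive in 5 of the 7 tested members, with a median of 0.12, against 51.8% of all tested genes and a median of 0.01. Both KO libraries lay above both WT libraries for 1 tested member, Tuba1a, where 14.7% of all tested genes did so, and both lay below for 1, Tuba1c, where 11.8% did. The median of the 7 member medians was 89.1 and 100.7 nt in WT and 106.7 and 97.3 nt in KO, a difference of 7.05 nt (exact two-sided permutation test, p = 0.667). Single libraries decided its size: leaving out WT 1 or KO 1 gave 1.27 or 2.35 nt, and leaving out WT 2 or KO 2 gave 12.8 or 11.7 nt. Minus the library median, the values were -8.18 and -4.90 nt in WT and 0.830 and -0.830 nt in KO, so the genotypes separated. With library-centred tail lengths the difference was 6.60 nt, and with means of log2 tail length 5.43 nt. Each gave p = 0.333 in the same exact test, the smallest possible.

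**Figure D5:**
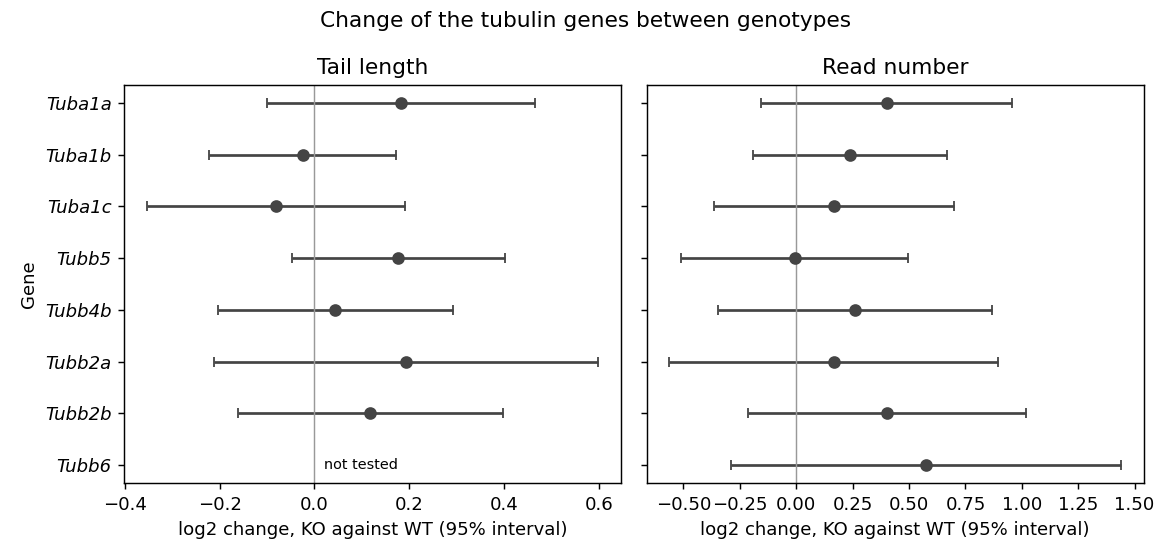
Log2 change in KO against WT of tail length (left, limma on log2 medians) and of read number (right, limma's voom) for each tubulin gene; points are estimates and bars 95% intervals. Every interval includes 0, and the narrowest tail length interval, of Tuba1b, runs from -0.22 to 0.17.

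In the deposited classes of Mov10 targets, whose definition is not stated, Tuba1c was the only member listed as a target with m6A, a methylated adenosine in mRNA. Tubb4b, Tubb2a and Tubb6 were listed as non-targets, and Tuba1a, Tuba1b, Tubb5 and Tubb2b were in no class. The log2 tail length change of Tuba1c, -0.08, had an interval from -0.35 to 0.19 and ran from -0.048 without WT 1 to -0.11 without WT 2.

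Of the 12 other tubulin genes looked for, 8 had reads and 5 had reads in all 4 libraries. Tuba4a, an alpha tubulin that lacks the terminal tyrosine at synthesis, had 182 and 279 RPM in WT and 338 and 391 in KO. Tubb3, the neuronal beta tubulin, had 29.6 and 71.2 RPM in WT and 119 and 83.7 in KO. Both genes had KO libraries above WT libraries, also on scaled levels. There 965 of 4815 tested genes did so, and 40.5% did not overlap in either direction. Their log2 changes of 0.57 ± 0.26 and 1.02 ± 0.39 did not pass limma's voom test (adjusted p = 0.470 and 0.380). Without WT 2 the value for Tubb3 was 1.54 with an adjusted p of 0.0272 (limma), where the alternatives ranged from that value to 0.998, and without WT 1 it was 0.48. For Tuba4a it was 0.36 without WT 1. Summed neural markers, Tubb3 included, were 462 and 362 RPM in WT and 471 and 391 in KO, and their part in this result was not tested. Tuba3a had 16, 18, 25 and 6 reads in WT 1, WT 2, KO 1 and KO 2, with median tails from 61.6 to 81.7 nt. Its RPM overlapped between genotypes, with 36.4 and 51.3 in WT and 36.6 and 14.0 in KO. On scaled levels both KO libraries were lower, as in 987 of 4815 tested genes. The log2 change of Tuba3a in read number was -0.85 ± 0.48 (limma adjusted p = 0.560). Gamma tubulin Tubg1, which nucleates microtubules, had 7 to 20 reads and epsilon tubulin Tube1 1 to 3. Tuba4a was the only one with enough reads for the tail test, with medians of 94.2 and 92.1 nt in WT and 89.3 and 90.6 nt in KO, also under the library median in 4 of 4 libraries.

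Genes that fold, regulate or bind tubulin were counted from 6 lists. No gene of any list passed either limma test. Among the folding cofactors, 2 of 5 tested had a positive log2 change in read number (median -0.21); the most abundant, Tbcb, which binds alpha tubulin, had 198 ± 29.6 RPM in WT and 184 ± 9.57 in KO (SD, n = 2). Prefoldin, which hands nascent tubulin to the chaperonin, had 2 of 6 positive (median -0.28), and its most abundant subunit Pfdn5 had 281 ± 5.11 and 319 ± 63.7 RPM. The lowest adjusted p of all lists was 0.142, for the prefoldin gene Pfdn6 (log2 change -1.04, chosen after its value was seen). Of the autoregulation list, Ttc5, Scaper and the Ccr4-Not subunits, 5 of 9 were positive (median 0.11), and Cnot1, the scaffold subunit, had 96.5 ± 20.6 and 101.8 ± 9.17 RPM.

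The gamma tubulin complex list had 3 of 4 positive (median 0.24), led by Mzt2 at 52.6 ± 5.98 RPM in WT and 79.4 ± 3.69 in KO. Of the tubulin code enzymes, which modify tubulin chains, only 2 had enough reads, and Svbp, the partner of the detyrosinating vasohibins, led with 56.9 ± 0.0567 and 70.3 ± 4.06 RPM. Microtubule-associated and motor proteins had 7 of 18 positive (median -0.03). Their most abundant gene, Stmn1, which sequesters tubulin dimers, had 1029 ± 424 RPM in WT and 1044 ± 98.6 in KO, and its tails, 128.9 ± 6.58 and 120.7 ± 9.02 nt, had group means above those of every tubulin member. For tail length, 1 of 2 folding cofactors, 1 of 6 prefoldin genes, 2 of 3 autoregulation genes and 3 of 8 microtubule-associated genes were positive. These lists are described by counts and medians only.

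Of 434 other genes that had 100 reads or more in every library, those closest to Tuba1b in median tail length over the 4 libraries were Eif3m, Rps3 and Hypk, with root mean square differences of 0.0101, 0.0228 and 0.0266 on the log2 scale. The median over the genes compared was 0.166. Eif3m, a translation initiation factor subunit, had 91.7, 100.1, 96.6 and 91.9 nt in WT 1, WT 2, KO 1 and KO 2. The closest to Tubb5 were Gm9844, Hmgn1 and Gapdh, at 0.0432, 0.0460 and 0.0491, where the median was 0.171. Gapdh, a glycolytic enzyme, had 93.8, 111.9, 110.9 and 107.7 nt. Its low WT 1 value follows from choosing genes by closeness to Tubb5 and is not a separate finding. With 4 libraries this is a description of tail lengths alone.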

How the data were processed

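Per the labels' protocols, the authors bound poly(A) RNA to oligo(dT) beads and sequenced it directly (SQK-RNA002, DeePlexiCon adapters, MinION R9 flow cells). The submitters' processing notes name minimap2 2.20; the basecaller, tail length tool, genome build and read filters are not given in the sources used here. The deposited table has 1 row per read, with a transcript, a symbol, a library and a tail length in nt that is an estimate, not normalized. Libraries were mapped by their titles. Of 1903922 reads, 3 with a tail of 0 were left out.

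Reads were collapsed per gene and library. Log2 median tails (at least 20 reads in each library, 1935 genes) and read numbers counted here (mean of at least 10, 4815 genes, voom with 0.5 added, median-of-ratios scaling) were tested with limma 3.58.1 in R 4.3.3, with Benjamini-Hochberg adjustment over all genes and a threshold of 0.05. RPM divides by all reads of a library. Single values were compared by exact permutation over libraries (6 arrangements, or 16 sign patterns). Intervals of medians are exact binomial order-statistic intervals and intervals of shares are Wilson intervals, both 95% and for counting error only. The 2 limma procedures were also run on simulated data with known changes, with outcomes not given here. All 8 members are named; from each other list the gene with the most reads and any past the threshold, from the other tubulin genes those with reads in all libraries, and for likeness the 3 closest genes. The members, lists and tests were chosen with earlier results of these data known. Alternatives changed the summary, minimum reads, scaling, weights, centring, limits of long tails, members or libraries used. Tables were handled with pandas 2.3.3 and scipy 1.17.1 (Python 3.11.15, numpy 2.4.6).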

Additional observations from a re-analysis of the deposited data

How the results depend on the processing

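No tubulin member was called under any of the 12 settings for tail length or the 10 for read number. Tubb6 was tested in none of the tail length settings, and Tubb2a not in that of at least 50 reads. Neither was tested for read number with a mean of at least 50 reads, so no call was possible there. Calls over all genes, 0 in both main tests, were 1 for tail length with at least 10 reads and 0 to 4 with each library left out (4 without WT 2). For read number they were 7 with total scaling, 96 without a filter on low reads, 66 with the replicate block, and 0 to 367 with each library left out (50 without WT 1, 367 without WT 2). The replicate numbers are not stated to pair libraries: deviations of same-numbered libraries correlated at 0.0135 for tail length and 0.0155 for read number across genes, and the block changed no member's call. The long tail difference was -0.363 points from 200 nt and -0.885 to 1.38 with a library left out. Beta minus alpha was -1.63 nt over member medians, 0.587 to 5.44 nt with a library left out, and 6.57 nt on transcripts with 1 symbol, where Tuba1a was the only alpha gene left. On those transcripts the genotype split of beta minus alpha was -0.478 nt, an alternative chosen after seeing the data. Signs turned for the tail change of Tuba1b (0.017) and Tubb4b (-0.014) with means of log2 length, of Tubb4b (-0.034) with arithmetic means, and for the read number change of Tubb5 with total scaling (0.088), a mean of at least 50 reads (0.040) or limma trend (0.0024). With a library left out, tail changes ranged from -0.091 to 0.043 for Tuba1b, -0.011 to 0.10 for Tubb4b, -0.066 to 0.45 for Tubb2a and -0.053 to 0.29 for Tubb2b. Read number changes ranged from -0.27 to 0.27 for Tubb5, -0.12 to 0.65 for Tubb4b, -0.17 to 0.46 for Tubb2a, -0.034 to 0.87 for Tubb2b and -0.0097 to 0.36 for Tuba1c. Where a sign turned, the cause was not tested. Tubb2a and Tubb6 are limited by depth, with as few as 24 and 9 reads in a library.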
